A study of Mus musculus with 6 samples.

Results

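The genes described here are those read from the mitochondrial genome and the nuclear genes whose products copy, transcribe, process and protect it. They were chosen by name: every row of the count table whose gene name starts with mt-, and every row that carries a name from a list of 38 nuclear genes. This gave 55 of the 13962 genes in the table, 21 encoded by mitochondrial DNA and 34 nuclear genes. Slirp, Tefm and Mgme1 from the list are not analysed here, and Twnk, the newer name of the helicase gene, stands in the table under its older name, Peo1. The expression filter passed 52 of the 55 genes: all 34 nuclear genes and 18 of the 21 encoded ones.

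Poly(A) RNA was sequenced from beige adipocytes, heat-producing fat cells that arise within white fat. The cells grew from preadipocytes of the inguinal white fat of C57BL/6 mice, immortalized with large T antigen, and all carried floxed Tle3 alleles with the tamoxifen-activated recombinase CreERT2 (TLE3F/F CreERT2). They were differentiated with insulin (20 nM), T3 (1 nM), isobutylmethylxanthine (0.5 mM), dexamethasone (0.5 uM), indomethacin (0.125 mM) and rosiglitazone (1 uM), treated from day 4 for 24 hours, and harvested on day 10. The control group received ethanol (n = 3 libraries), and the group labelled TLE3 knockout received tamoxifen at 500 nM, named 4-hydroxytamoxifen in the growth protocol (n = 3). No tamoxifen-treated cells without floxed Tle3 are analysed here, so the deletion, the compound and the recombinase cannot be told apart. The labels do not say that the 3 libraries of a group came from separate cultures, so the p-values reflect only how far these libraries differ from each other, which may be technical. Total counts ran from 14606228 to 19294632 per library. Tle3 itself was higher under tamoxifen, at a mean of 290 CPM against 151.6 CPM in controls (CPM are counts scaled to the library total). These are whole-gene counts and do not isolate the deleted exons. The treated group is therefore called the knockout-labelled libraries, numbered knockout 1 to 3, and each direction below is theirs relative to control 1 to 3.

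Mitochondrial DNA is a small circle that encodes some subunits of the respiratory chain, the ribosomal RNAs of the mitochondrial ribosome and a set of transfer RNAs. Both strands are transcribed into long precursors by the polymerase POLRMT with the factors TFAM and TFB2M, and the precursors are cut at the transfer RNAs, polyadenylated, stabilized or degraded. All proteins that do this work come from nuclear genes, many of them under the transcription factors NRF1 and GABP. In brown and beige fat, where respiration produces heat, the encoded and the nuclear-encoded respiratory subunits must be made in step.

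The encoded transcripts were abundant and none passed the test for a difference between the groups. They took 6.11%, 6.54% and 6.17% of all counts in control 1 to 3 and 6.29%, 6.01% and 6.09% in knockout 1 to 3. The groups overlapped, and the Wilson 95% interval of each share was no wider than 0.0126 percentage points to either side, for counting error only, since reads without molecular identifiers are not independent molecules. With edgeR's quasi-likelihood test and Benjamini-Hochberg adjustment over all tested genes, 0 of 18 tested encoded genes were called at an adjusted p under 0.05, where 12.3% of all 13192 tested genes were called, 6.91% as higher and 5.44% as lower. At an unadjusted p under 0.05 there was 1 (mt-Nd3), and the count of calls was 0 with DESeq2 and 0 with limma-voom. With 18 genes, 0 calls cannot be told apart from the 12.3% of all tested genes. Of the 18 fold changes, 7 were above and 11 below zero, and the median log2 fold change was −0.02, beside 0.00 (−0.002) over all tested genes.

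Of the encoded genes 8 coded for proteins, and 7 of them were well covered. mt-Nd1, a core subunit of complex I, stood at 15930, 16210 and 15230 CPM in the controls and at 16080, 15320 and 15680 CPM in the knockout-labelled libraries (log2 fold change −0.01, 95% interval −0.16 to 0.14, edgeR adjusted p 0.952). mt-Co1, the catalytic subunit of cytochrome c oxidase, was at 11370, 12370 and 11320 CPM against 11700, 11710 and 11940 CPM (log2 0.01, interval −0.14 to 0.16). For both, all 3 knockout-labelled libraries lay within the range of the controls.

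mt-Cytb, the encoded subunit of complex III, was at 10820, 11840 and 10750 CPM in the controls and at 10710, 10870 and 10590 CPM in the knockout-labelled libraries, a log2 fold change of −0.06 (−0.055). The complex I subunit mt-Nd2 was at 8804, 9340 and 8919 CPM and at 9115, 8180 and 8572 CPM (log2 −0.07). mt-Nd5, also of complex I, was at 5713, 6434 and 5782 CPM and at 5903, 5884 and 5951 CPM (log2 −0.02). Control 2 was the highest library for mt-Cytb, mt-Nd2 and mt-Nd5, and it also had the largest share of encoded counts.

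mt-Nd4, another complex I subunit, was the exception to the overlap among these abundant transcripts. It was at 4168, 4511 and 4153 CPM in the controls and at 4109, 3986 and 4112 CPM in the knockout-labelled libraries, so the groups did not overlap, by a gap of 41 CPM or less. Its log2 fold change was −0.07 (SE 0.058, edgeR adjusted p 0.46), and 15.8% of all tested genes were lower without overlap, out of 31.8% without overlap in either direction. mt-Nd6, the protein gene on the other strand, was far less abundant, at 205.9, 224.9 and 186.2 CPM against 208.9, 222.5 and 210.5 CPM (log2 0.06). Over these 7 messenger RNAs the 95% intervals reached from −0.21 to 0.20 on the log2 scale, which is the precision that these libraries gave.

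mt-Nd3 was measured at about 1 CPM only. Its counts were 20, 18 and 29 in controls and 10, 9 and 15 in the knockout-labelled libraries, or 1.13, 1.22 and 1.48 CPM against 0.62, 0.62 and 1.00 CPM. The groups did not overlap, but the log2 fold change of −0.77 (SE 0.28) gave an edgeR adjusted p of 0.0987. The transfer RNA gene mt-Tg, which directly precedes mt-Nd3 on the genome, had counts of 16, 15 and 22 against 9, 8 and 14 (log2 −0.57, adjusted p 0.239). These were the lowest fold changes among the tested encoded genes, and they rest on 8 to 29 reads per library.

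The genes also differ in how much sequence they share with the nucleus. Stretches of mitochondrial DNA have been copied into nuclear chromosomes, and reads that fit both places can be lost or split when they are counted. Of all 50-base windows in the mt-Nd3 transcript of GENCODE M21, 98% were found letter for letter in an annotated nuclear transcript, Gm28438. The share was 62.2% for mt-Nd4, 51.1% for mt-Co1, 8.2% for mt-Nd2, 7.6% for mt-Nd5, 1% for mt-Rnr2 and 0% for the other 15 encoded genes, mt-Nd1, mt-Cytb and mt-Nd6 among them. Levels of mt-Nd3, mt-Nd4 and mt-Co1 are therefore uncertain. How shared reads were counted is not given in the labels. Some nuclear genes with such windows have counts of their own. Gm13341, which shares windows with mt-Co2, had 339 to 448 per library. Gm13340, which shares windows with mt-Co1, had 280 to 397, and Gm11407, Gm11512 and Gm13339 had 4 to 34. Of 37 genes annotated on the mitochondrial genome 16 are not analysed here. Among them mt-Co2, mt-Co3, mt-Atp6 and mt-Nd4l share 98.8% to 100% of such windows with nuclear transcripts. The rest of the 16, mt-Atp8 and transfer RNA genes, share 0%. Why these 16 are missing was not tested.

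Both ribosomal RNAs had means slightly higher in the knockout-labelled libraries without passing the test, and with length and GC offsets the value of mt-Rnr1 was −0.03 (−0.034). mt-Rnr2, the large-subunit RNA, was at 2538, 3064 and 2842 CPM in the controls and at 3031, 2987 and 3048 CPM in the knockout-labelled libraries (log2 0.10, edgeR adjusted p 0.364). mt-Rnr1, of the small subunit, was at 1247, 1483 and 1439 CPM against 1461, 1435 and 1468 CPM (log2 0.07, adjusted p 0.551). In both, control 1 was the lowest library. The other 5 lay close together for mt-Rnr1, while for mt-Rnr2 control 3 (2842 CPM) lay between control 1 and the rest. Without control 1 the value was 0.04 for mt-Rnr2 and 0.00 (−0.002) for mt-Rnr1.

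Reads on transfer RNA genes were few, and their level did not simply follow that of the neighbouring message. Mature transfer RNAs carry no poly(A) tail, and the libraries were made from poly(A) RNA. Per kilobase of gene, in controls, mt-Ti was at 792 CPM per kilobase and mt-Tl1 at 686.7, and both of these flank mt-Nd1. mt-Tw and mt-Tm, on either side of mt-Nd2, followed at 229 and 176.7 CPM per kilobase. The remaining 7 were between 5.62 (mt-Te) and 45.8 (mt-Tp) CPM per kilobase, among them mt-Te and mt-Tt (27.5), which lie on either side of the abundant mt-Cytb. Those on the strand of mt-Nd6 were mt-Tq, mt-Tn, mt-Te and mt-Tp, and mt-Tq, mt-Tn and mt-Te had 4 to 12 counts per library and did not pass the filter.

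The neighbours mt-Ti and mt-Tq differ most plainly, and they lie on opposite strands and their 3′ ends overlap. Their sequences in GENCODE M21 are given 5′ to 3′ as DNA letters, with the 3 bases of the overlap, read from either strand, in capitals.
mt-Ti: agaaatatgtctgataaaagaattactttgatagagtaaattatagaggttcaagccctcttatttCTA
mt-Tq: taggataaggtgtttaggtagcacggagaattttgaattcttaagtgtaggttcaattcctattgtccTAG
Counts on mt-Ti, the isoleucine transfer RNA, were 953, 887 and 983 in controls and 841, 787 and 814 in the knockout-labelled libraries. Counts on mt-Tq, the glutamine transfer RNA, were 10, 6 and 11 and then 5, 5 and 8. Per kilobase of gene, in controls, mt-Tq was at 7.19 CPM.

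Of the 8 tested transfer RNA genes, 3 had fold changes above and 5 below zero, and none was called. mt-Ti was at 54.7 ± 4.99 CPM in the controls and at 53.8 ± 1.17 CPM in the knockout-labelled libraries (SD, n = 3), mt-Tl1 at 51.5 ± 4.57 and 49.6 ± 1.17 CPM, mt-Tw at 15.3 ± 1.91 and 15.03 ± 1.44 CPM, and mt-Tm at 12.2 ± 0.863 and 11.5 ± 0.522 CPM. The log2 fold changes of these 4 ran from −0.09 to −0.02. mt-Tp (log2 0.09), mt-Tt (0.16) and mt-Tv (0.31) had means of 0.878 to 3.20 CPM, where SEs were 0.22 to 0.27.

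**Figure D1:**
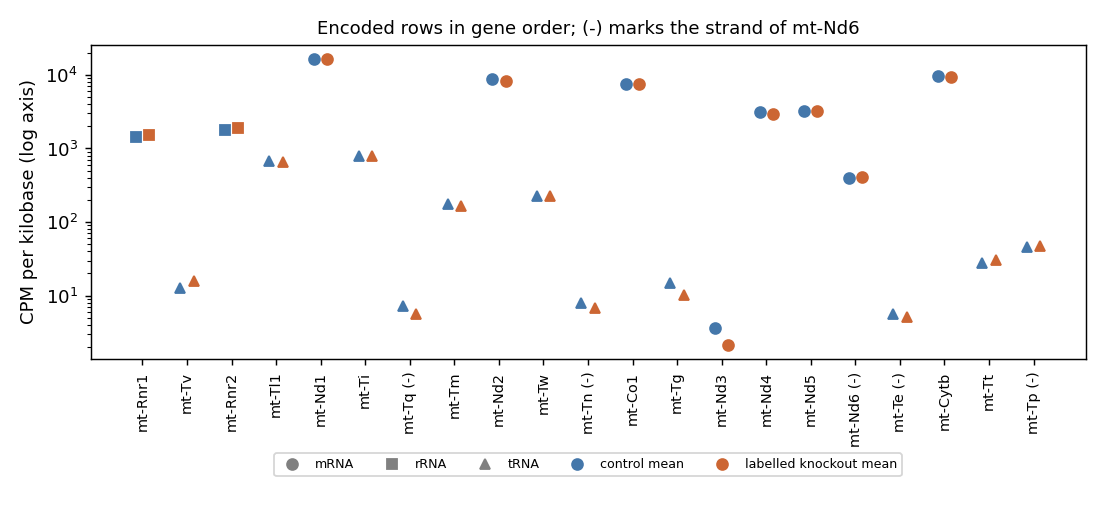
Mean level of each encoded gene in CPM per kilobase of gene (log axis), in the order of the genes on the mitochondrial genome, for controls (blue) and knockout-labelled libraries (orange); marker shapes separate messenger, ribosomal and transfer RNAs, and (-) marks genes on the strand of mt-Nd6. mt-Nd1 is highest at 16500 CPM per kilobase in controls, mt-Nd3 lies lowest at 3.66, and the group means nearly coincide except at the lowest levels.

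Among the 7 well-covered messenger RNAs, levels per kilobase in controls ran from mt-Nd1 (16500 CPM per kilobase) through mt-Cytb (9738), mt-Nd2 (8691), mt-Co1 (7566), mt-Nd5 (3276) and mt-Nd4 (3104) down to mt-Nd6 (396.3). The ribosomal RNAs were at 1779 (mt-Rnr2) and 1455 (mt-Rnr1) CPM per kilobase. In mitochondria ribosomal RNAs are usually the most abundant encoded RNAs, and these libraries were made from poly(A) RNA; the part of that selection in the ratio was not tested. The order of these 7 was the same in the knockout-labelled libraries, from 16390 for mt-Nd1 to 412.1 for mt-Nd6. mt-Nd3, the eighth, lay far below them in both groups, at 3.66 and 2.16 CPM per kilobase.

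Of the nuclear genes, 9 of 34 rose and 0 fell, or 26.5% rising where 6.91% of all tested genes rose. Their median log2 fold change was 0.10, beside 0.00 (−0.002) over all tested genes, with 24 values above zero and 9 below. All rises were small, from 1.13-fold for Fastk to 1.3-fold for Fastkd1. Groups that did not overlap were found for 13 of the 34 genes, all with the knockout-labelled libraries higher, beside 16% of all tested genes. Without knockout 3 the genes that rose numbered 5. Over all genes 1629 changed. Leaving out 1 library lowered this number to 976 (control 1), 1068 (control 3), 1352 (knockout 1), 962 (knockout 2) or 621 (knockout 3), or raised it to 1895 (control 2). None of the 34 had an unadjusted p under 0.05 in the lower direction. The alternative tools DESeq2 and limma-voom each called 9 higher and 0 lower.

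**Figure D2:**
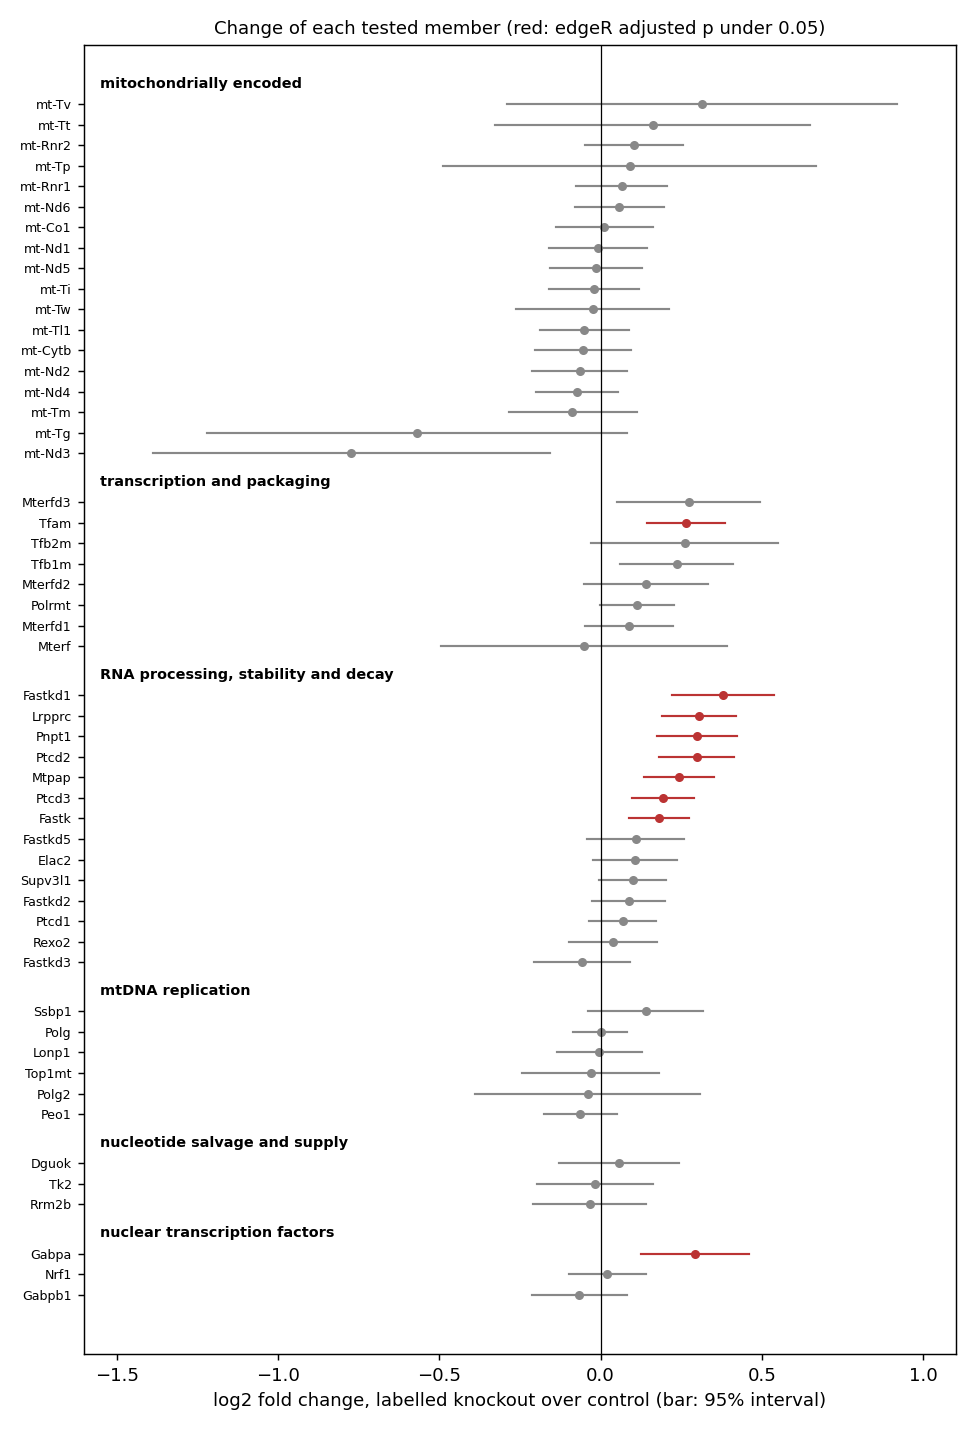
Log2 fold change, knockout-labelled libraries over controls, of the 52 tested genes, grouped by role, with bars for the 95% interval of edgeR's fit (n = 3 libraries per group). The 9 genes in red passed an adjusted p of 0.05; 7 of them act on mitochondrial RNA, and none is encoded by mitochondrial DNA.

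The genes that rose were mostly those that act on the RNA after transcription. Of the 34 genes 14 are for RNA processing, stability and decay. Of these 14, 7 rose (50%, beside 6.91% of all tested genes) and 0 fell, and their median log2 fold change was 0.15. Of 8 genes for transcription and packaging 1 rose, with a median of 0.19, and of 3 nuclear transcription factor genes 1 rose. In DNA replication 0 of 6 rose or fell, and in nucleotide supply 0 of 3, and in these sets no unadjusted p was under 0.05 and neither DESeq2 nor limma-voom made a call. In sets of 3 to 8 genes, 0 or 1 call cannot be told apart from the share of all tested genes. Differences between the roles were not tested.

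In transcription and packaging, Tfam was the gene that rose. TFAM coats mitochondrial DNA and bends it at the promoters. Its messenger RNA was at 108.6, 116.5 and 101.8 CPM in the controls and at 124.9, 132.2 and 135.3 CPM in the knockout-labelled libraries. Every knockout-labelled library was above every control, by 1.2-fold on average (log2 0.27, SE 0.0549, edgeR adjusted p 0.0108). The call was lost without knockout 3 (log2 0.24, adjusted p 0.0656).

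The polymerase gene Polrmt and the gene of the methyltransferase TFB1M were also higher in every knockout-labelled library, short of the threshold. Polrmt was at 58.82, 57.06 and 52.78 CPM in the controls and at 60.98, 58.9 and 62.28 CPM in the knockout-labelled libraries (log2 0.11, interval 0.00 (−0.003) to 0.23, edgeR adjusted p 0.19). Tfb1m was at 13.08, 14.42 and 13.17 CPM against 16.52, 15.69 and 15.54 CPM (log2 0.24, adjusted p 0.077). For Tfb2m, the initiation factor gene, the groups overlapped, at 6.60, 6.43 and 7.40 CPM and 9.60, 7.12 and 7.77 CPM (log2 0.26, SE 0.132, adjusted p 0.226).

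The termination factor family MTERF had 4 rows and no call. Mterfd3 (the older name of Mterf2) was at 10.5 ± 1.03 CPM in the controls and at 12.6 ± 0.838 CPM in the knockout-labelled libraries, without overlap (log2 0.27, edgeR adjusted p 0.104). Mterfd2 (Mterf4), which acts with an RNA methyltransferase in ribosome assembly, had a log2 fold change of 0.14 and Mterfd1 (Mterf3) one of 0.09. Mterf was at 2.48 ± 0.503 and 2.38 ± 0.262 CPM; it has a mouse paralog, Mterf1b, so its counts are uncertain.

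Lrpprc had the smallest adjusted p of the 34 genes. LRPPRC binds mitochondrial messenger RNAs together with SLIRP, keeps them stable and promotes their polyadenylation. Lrpprc was at 315.7, 341.7 and 297.4 CPM in the controls and at 389, 387.4 and 403.3 CPM in the knockout-labelled libraries. The lowest knockout-labelled library lay above the highest control, and the difference was 1.24-fold (log2 0.31, SE 0.0525, edgeR adjusted p 0.00462). Mtpap, the gene of the mitochondrial poly(A) polymerase, was at 61.35, 67.08 and 61.1 CPM and then 74.01, 75.43 and 74.53 CPM (1.18-fold, SE 0.0491 on the log2 scale, adjusted p 0.00985).

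Among the genes for RNA decay, Pnpt1 was called and Supv3l1 and Rexo2 were not. Pnpt1 encodes polynucleotide phosphorylase, the exonuclease of the mitochondrial degradosome, and rose from 62.99, 64.71 and 64.16 CPM to 77.01, 73.77 and 85.25 CPM (1.23-fold, edgeR adjusted p 0.00706). Supv3l1, its helicase partner, was at 70.1 ± 2.46 and 75.1 ± 2.40 CPM (log2 0.10, adjusted p 0.197). Rexo2, which clears the short oligonucleotides that decay leaves, was at 44.4 ± 3.04 and 45.6 ± 2.24 CPM (log2 0.04). The groups of Supv3l1 and Rexo2 overlapped, and those of Pnpt1 did not.

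Among the FASTK family of RNA-binding proteins, Fastkd1 and Fastk rose. Fastkd1, tied in other work to the level of the ND3 message, was at 34.17, 35.06 and 28.79 CPM in the controls and at 41.96, 42.31 and 42.86 CPM in the knockout-labelled libraries (log2 0.38, SE 0.0721, edgeR adjusted p 0.00734). Fastk, a form of which is needed for the ND6 message, went from 141.4, 145.3 and 134.5 CPM to 158.2, 158 and 161 CPM (log2 0.18, adjusted p 0.0191). In both, the knockout-labelled libraries lay close together and above every control. The call for Fastk was lost without control 1 (adjusted p 0.0593), knockout 2 (0.0549) or knockout 3 (0.0967). Fastkd2 (log2 0.09), Fastkd5 (0.11) and Fastkd3 (−0.06) were not called.

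In the pentatricopeptide repeat family, Ptcd2 and Ptcd3 rose. PTCD2 takes part in the maturation of the cytochrome b message, and its gene was at 41, 37.63 and 37.62 CPM in the controls and at 46.7, 47.77 and 48.48 CPM in the knockout-labelled libraries (log2 0.30, SE 0.0526, edgeR adjusted p 0.00546). PTCD3 binds the small ribosomal subunit, and its gene was at 154.2, 165.2 and 154.4 CPM and then 180.7, 176 and 185 CPM (log2 0.19, adjusted p 0.0159). Neither gene's groups overlapped. The call for Ptcd3 was lost without control 1 (adjusted p 0.0702) or knockout 3 (0.0934). Ptcd1 (log2 0.07) and Elac2 (0.11), the latter the enzyme that trims the 3′ ends of transfer RNAs, were not called.

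**Figure D3:**
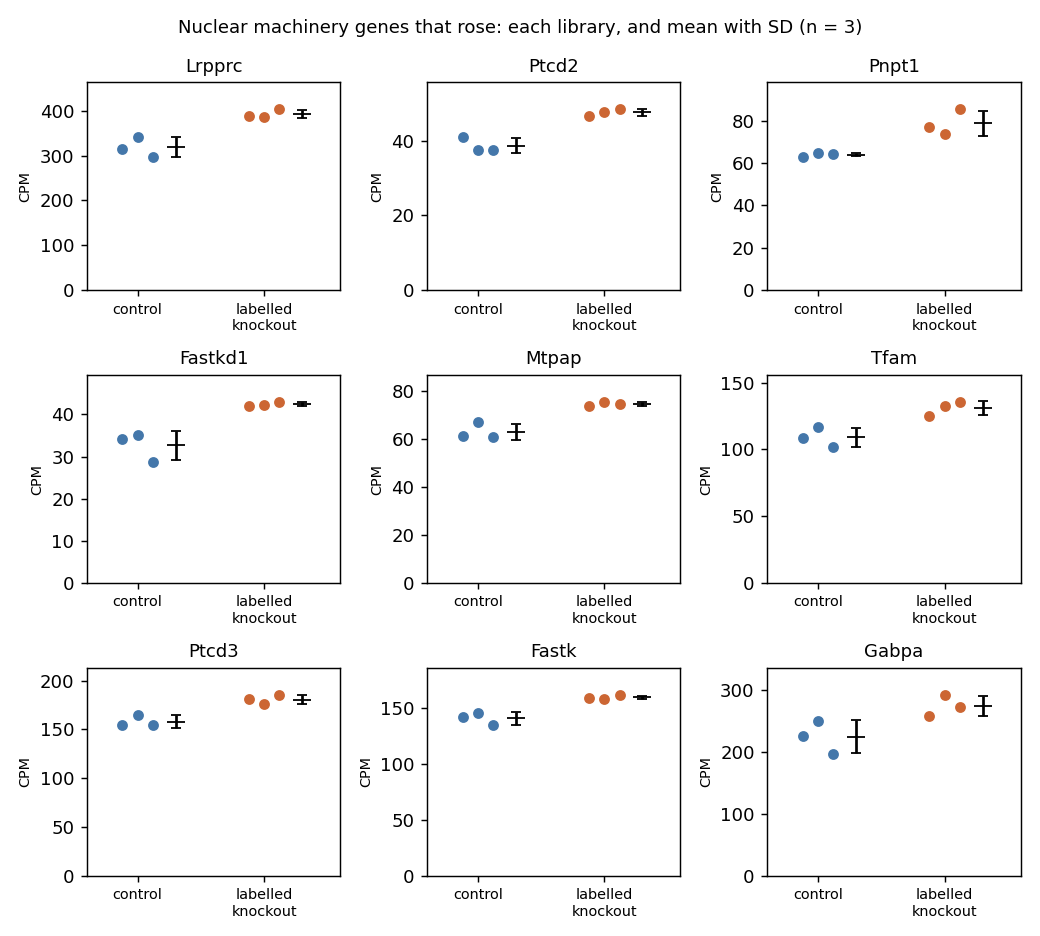
CPM of the 9 nuclear genes that rose, from the smallest to the largest adjusted p, in each library (blue, controls; orange, knockout-labelled libraries), with the mean and SD of each group (n = 3) beside the points. In each panel the lowest knockout-labelled library lies above the highest control; for Gabpa the gap is narrowest relative to the spread, from 249.4 to 258.1 CPM.

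No gene of the replication apparatus was called, and their intervals differed in width. Polg, the DNA polymerase gene, was at 148.9, 152.7 and 150.3 CPM in the controls and at 152.1, 149.3 and 150.3 CPM in the knockout-labelled libraries, with a 95% interval of −0.08 to 0.08 on the log2 scale. Peo1, the helicase gene, was at 56.39, 61.93 and 58.04 CPM against 56.99, 54.13 and 57.52 CPM (log2 −0.06, interval −0.18 to 0.05). For both genes the groups overlapped.

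Lonp1, whose protease degrades TFAM among other matrix proteins, was the most abundant of the 34, at 1002 ± 82.3 and 999.6 ± 20.8 CPM. Per length it was also the highest, at 229.7 CPM per kilobase in controls and a mean of 339.7 in the deposited rounded FPKM. Ssbp1 (log2 0.14), Top1mt (−0.03) and Polg2 (−0.04) were not called either, Polg2 at only 3.62 ± 0.0458 and 3.54 ± 0.589 CPM. The enzymes that supply nucleotides for mitochondrial DNA, Tk2 (log2 −0.02), Dguok (0.06) and Rrm2b (−0.03), had overlapping groups.

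Gabpa rose while its partner gene did not pass the test. GABPA is the DNA-binding subunit of GABP (also called NRF-2), and GABPB1 supplies the activating subunit. Gabpa was at 225.3, 249.4 and 196.8 CPM in the controls and at 258.1, 290.8 and 272.6 CPM in the knockout-labelled libraries (1.22-fold, log2 SE 0.0762, edgeR adjusted p 0.0302). Control 3 was the lowest and knockout 2 the highest library. The call was lost without control 1 (adjusted p 0.0864), control 3 (0.0524), knockout 2 (0.111) or knockout 3 (0.105). Gabpb1 was at 26.34, 29.98 and 29.25 CPM and then 26.38, 27.65 and 27.66 CPM (log2 −0.07, adjusted p 0.57). Nrf1 was at 47.43, 45.28 and 46.15 CPM and then 49.51, 47.36 and 44 CPM (log2 0.02, interval −0.10 to 0.14).

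Promoters of the nuclear genes were searched for the letters of the GABP and NRF1 motifs, which are known to bind promoters of this kind. RefSeq promoter windows (build GRCm38.p6) were matched for 30 of the 34 genes, in 34 windows of 250 bases before to 50 bases after a gene start. The motif CCGGAAG (ETS family, which includes GABP) was present on either strand in 13 windows, or 38.2%, beside 8.9% of all 32851 windows in the reference and 16.6% of the 11863 windows of genes in the count table. GCATGCG, a core of the NRF1 motif, was in 5 windows, or 14.7%, beside 3.6% and 6.2%; in these windows no match of the one overlapped a match of the other, while matches of GCATGCG on opposite strands can overlap by 6 bases. A CCGGAAG match was found for 4 of 8 matched genes that rose and for 9 of 22 that were not called. A match is a description of letters and not a binding site.

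The 3 promoters below belong to the genes that rose with the smallest adjusted p among those with a match. They show the 150 bases before the start, 5′ to 3′ on the gene's strand, with CCGGAAG in capitals; its first base lies 66, 47 and 58 bases before the start of Ptcd2 (chr13:99344679-99344828, minus strand), Tfam (chr10:71238045-71238194, minus strand) and Fastk (chr5:24445236-24445385, minus strand).
Ptcd2: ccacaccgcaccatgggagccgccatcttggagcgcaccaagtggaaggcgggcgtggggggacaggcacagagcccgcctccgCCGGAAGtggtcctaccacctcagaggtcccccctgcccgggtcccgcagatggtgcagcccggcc
Tfam: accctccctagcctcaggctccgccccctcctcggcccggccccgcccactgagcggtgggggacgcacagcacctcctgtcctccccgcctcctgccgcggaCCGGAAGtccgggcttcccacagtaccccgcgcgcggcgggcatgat
Fastk: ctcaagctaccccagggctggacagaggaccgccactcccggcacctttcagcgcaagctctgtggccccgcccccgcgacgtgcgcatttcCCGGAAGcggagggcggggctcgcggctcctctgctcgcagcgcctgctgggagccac
Polg and Polrmt, which were not called, also hold CCGGAAG, and Lrpprc, which rose, holds neither motif in its window.

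Set side by side in the same libraries, the gap between the encoded and the nuclear genes was smaller in the knockout-labelled group. The mean log2 CPM of the 34 nuclear genes was 5.29, 5.32 and 5.24 in control 1 to 3 and 5.40, 5.40 and 5.40 in knockout 1 to 3. For the 18 encoded genes it was 7.192, 7.343 and 7.204 and then 7.191, 7.163 and 7.246, with overlap. The encoded mean minus the nuclear mean was 1.90, 2.02 and 1.96 in controls and 1.79, 1.77 and 1.85 in the knockout-labelled libraries, so that the groups did not overlap. The group means of this difference, 1.96 ± 0.059 and 1.80 ± 0.0412, lay 0.16 apart on the log2 scale (−0.132 to −0.191 without any 1 library). Between the groups the nuclear mean differed by 0.115 and the encoded mean by −0.0463. Since the genes were chosen, no p is given for these scores, and a mean over genes gives mt-Nd3 and mt-Tg, at about 1 CPM, the same weight as mt-Nd1. Those genes had the lowest encoded fold changes (log2 −0.77 and −0.57). The encoded part of the shift therefore leans on them, and the score was not computed without them.

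Single genes can be compared with their error. The 9 nuclear genes that rose had log2 fold changes of 0.18 to 0.38, with 95% intervals from 0.09 upwards. They were called by the same fit, so intervals above no change follow from that call. The highest upper limit among the 7 well-covered messenger RNAs was 0.20, for mt-Nd6, and mt-Nd1, mt-Co1 and mt-Cytb ended at 0.14, 0.16 and 0.10 (0.095). The intervals of Lrpprc (0.19 to 0.42) and Fastkd1 (0.22 to 0.54) lay above that of mt-Cytb. Both overlapped that of the ribosomal RNA mt-Rnr2 (−0.05 to 0.25), and Lrpprc also overlapped mt-Nd6 (−0.08 to 0.20). Those of Fastk (0.09 to 0.27) and mt-Co1 (−0.14 to 0.16) overlapped. The difference between any encoded and any nuclear gene was not itself tested.

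**Figure D4:**
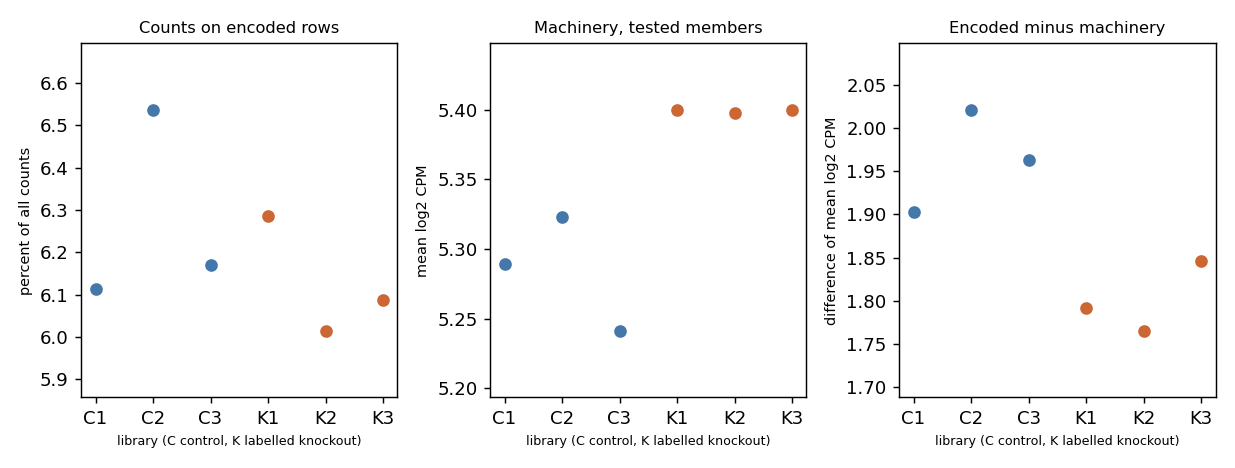
Percent of all counts on encoded rows (left), mean log2 CPM of the 34 nuclear genes (middle) and mean log2 CPM of the 18 tested encoded genes minus that of the nuclear genes (right), one point per library (C1 to C3 controls, K1 to K3 knockout-labelled libraries); axes do not start at 0. The share of counts overlaps between the groups, from 6.01% to 6.54%, the nuclear mean is higher and the difference lower in all 3 knockout-labelled libraries.

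Further genes of the same pathway were read from lists by function, beside all tested genes, of which 6.91% rose and 5.44% fell. Of 27 tested genes for RNA cleavage and modification, 1 rose, Trit1, a transfer RNA modifying enzyme (1.2-fold), or 3.7%, and 0 fell, although 4 had an unadjusted p under 0.05. On the list for RNA granules and decay, which also holds genes for protein turnover, 2 of 12 genes rose (16.7%) and 0 fell. They were Lace1, a protein-turnover gene (1.28-fold, from 28.7 ± 2.04 to 36.8 ± 1.70 CPM), and the nuclease gene Endog (1.23-fold). Of 14 genes for DNA replication and repair 1 rose (7.14%), the nucleoid-associated ATPase gene Atad3a (1.14-fold), and 0 fell. The shares for cleavage and modification and for replication and repair were below or near that of all genes. Among genes for nucleotide supply the adenylate kinase gene Ak3 rose (1.22-fold, from 246.1 ± 19.1 to 301 ± 9.15 CPM). The edgeR adjusted p of these 5 named genes lay between 0.00701 and 0.0338. The calls were lost for Trit1 with DESeq2 (0.0935) and without control 3, knockout 1, knockout 2 or knockout 3 (0.0706 to 0.0905), and for Atad3a without control 1, control 3, knockout 1 or knockout 3 (0.0799 to 0.129). They were also lost for Ak3 without knockout 3 (0.0524), and for Endog with DESeq2 (0.109), with length and GC offsets (0.148) and without any 1 library other than knockout 1 (0.0569 to 0.158).

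The regulators upstream of mitochondrial biogenesis moved in both directions. Of 14 tested, 4 rose (28.6%, beside 6.91% of all tested genes) and 2 fell (14.3%, beside 5.44%). The coactivator genes Ppargc1b (48.1 ± 2.71 to 68.4 ± 4.33 CPM, edgeR adjusted p 0.000607) and Ppargc1a (89.97 ± 3.91 to 112 ± 5.32 CPM, adjusted p 0.00324) rose, and so did the genes of their receptor partners, Esrra (1.36-fold, adjusted p 0.00198) and Esrrg (1.54-fold, adjusted p 0.0101). The third coactivator gene of that family, Pprc1, fell by 0.20 on the log2 scale (adjusted p 0.026), as did the corepressor gene Nrip1, by 0.31 (adjusted p 0.00251). The calls were lost for Esrrg without knockout 3 (adjusted p 0.0528) and for Pprc1 without control 1, control 3, knockout 2 or knockout 3 (0.0642 to 0.125).

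Markers of cell types bear on these comparisons, because in bulk RNA fewer cells of a type and less RNA per cell cannot be told apart. Summed over 8 general adipocyte markers, the level was 11060 to 13250 CPM in the controls and 12510 to 14390 CPM in the knockout-labelled libraries. Of these 8, 2 were called higher (Cd36 and Lipe) and 0 lower. Beside this and the counts that follow, 6.91% of all tested genes were called higher and 5.44% lower. The 8 thermogenic markers summed to 506.7 to 603.3 CPM and then 830 to 968.1 CPM, with 5 called higher (Cidea, Ucp1, Cox7a1, Cox8b and Ppargc1a, the last also a regulator above) and 1 lower (Elovl3). The 9 tested fibroblast and preadipocyte markers summed to 12100 to 13980 CPM and 12080 to 12590 CPM; Thy1 and Pdgfra fell and Dlk1 rose. Of 5 tested muscle markers Des rose, with sums of 1673 to 1950 CPM and 1781 to 1834 CPM. Endothelial markers (3 of 6 in the table) and macrophage and leukocyte markers (3 of 8) each summed to under 6 CPM in every library. Calls were lost for Cd36 and Lipe without control 1, control 3, knockout 2 or knockout 3, and for Pdgfra without knockout 2 or knockout 3. The call for Elovl3 was lost with either alternative tool and when control 2, control 3, knockout 2 or knockout 3 was left out. The lost calls had adjusted p of 0.0541 to 0.174. Control 3 had the lowest adipocyte and thermogenic sums, and also the lowest nuclear mean above. The part of these marker differences in the rises of the nuclear genes was not tested.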

How the data were processed

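The authors deposited raw counts per gene, per the file headers, for 6 libraries, under Ensembl IDs and gene names. Beside them, per the file headers, they deposited FPKM rounded to whole numbers, treated here as a score. Novoalign 2.8, Picard, DESeq2 and the build mm9 are named in the submitters' processing notes, without roles; they do not give the read counter, annotation or strand setting. Libraries were made with a stranded kit, per the labels. Genes and lists were chosen with earlier results of these data known.

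All genes were fitted with edgeR 4.0.16 (R 4.3.3): expression filter (13192 of 13962 genes kept), TMM scaling, quasi-likelihood test on group, Benjamini-Hochberg adjustment. A gene rose or fell at an adjusted p under 0.05. The SE is the log2 fold change over the square root of F. CPM use TMM-scaled library sizes. An exact permutation test of 3 against 3 libraries cannot go below p = 0.1. The biological coefficient of variation was 5.25%. On simulated counts for these 13192 genes, 56% of 1.25-fold and 86% of 1.5-fold changes were recovered, out of 50 genes each. Every simulated gene had the common dispersion, and fewer genes changed than were called here. The shares are therefore not the power of this comparison. Lengths (the longest transcript) and encoded sequences came from GENCODE M21, which held 13506 of the IDs, and promoters from RefSeq.

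Named in full were every encoded row, every called nuclear gene, and Tfam, Polrmt, Tfb1m, Tfb2m, Polg, Peo1, Nrf1, Gabpa and Lrpprc; of the further lists, up to 4 called genes each, with Esrrg, Pprc1 and the called marker genes added after their values were seen. DESeq2 1.42.0 and limma-voom (limma 3.58.1) were alternatives. A result of the nucleotide supply list is not reported here.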

Additional observations from a re-analysis of the deposited data

How the results depend on the processing

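Over all genes 16 alternatives were run. The 9 nuclear genes that rose were called under every scaling, filter, model, row and offset alternative (10 fits each), and their log2 fold changes kept their sign in all 16; without any 1 library they numbered 5 to 9, and changed genes over all 621 to 1895. Calls lost without a library (Gabpa, Ptcd3, Fastk and Tfam) are given above; a smaller fit also has fewer libraries to test with. The number of encoded genes called, and of nuclear genes that fell, was 0 in every fit. The median log2 fold change of the encoded genes was −0.062 with length and GC offsets and −0.053 to 0.042 without any 1 library, against −0.017; that of the nuclear genes was 0.068 to 0.117 without any 1 library, against 0.104. The encoded share of counts differed by −0.144 percentage points, by −0.118 without mt-Nd1, and by −0.224 to −0.0123 without any 1 library. The sign changed in at least 1 alternative for 18 genes, none of them called. With length and GC offsets the values were −0.046 for mt-Co1, −0.034 for mt-Rnr1, −0.057 for mt-Nd6, 0.015 for Lonp1 and 0.044 for Polg, and with library size alone −0.003 for mt-Co1; Polg was at 0.003 with DESeq2, 0.002 with RLE factors and 0.001 with no filter. Without any 1 library the ranges were −0.032 to 0.01 for mt-Nd1, −0.008 to 0.055 for mt-Co1, −0.042 to 0.041 for mt-Nd5, −0.007 to 0.126 for mt-Nd6, −0.002 to 0.115 for mt-Rnr1, −0.077 to 0.05 for mt-Ti, −0.095 to 0.019 for mt-Tl1, −0.118 to 0.047 for mt-Tw and −0.208 to 0.276 for mt-Tp. For nuclear genes they were −0.039 to 0.066 for Lonp1, −0.006 to 0.01 for Polg, −0.018 to 0.066 for Nrf1, −0.01 to 0.095 for Rexo2, −0.081 to 0.026 for Rrm2b, −0.078 to 0.04 for Top1mt, −0.049 to 0.013 for Tk2, −0.182 to 0.035 for Polg2 and −0.215 to 0.101 for Mterf. The cause of these shifts was not tested. Whether the replicate numbers pair the libraries cannot be settled here. Deviations from the group means correlated at −0.04, 0.191 and 0.031 for numbers 1 to 3, and at −0.235 to 0.227 between unlike numbers. Deviations from a mean of 3 libraries depend on each other, so these values cannot exclude a pairing. With the replicate number as a block 1809 genes changed against 1629, the nuclear genes that rose numbered 9, the encoded genes called 0, and the medians were 0.103 and −0.016. Of the called genes of the other lists, the marker Elovl3 lost its call under the block (adjusted p 0.0553). Genes under about 3 CPM rest on few reads per library.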
